A study of Mus musculus with 18 samples.

Results

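The comparison described here was that of mouse embryonic fibroblasts (MEF) transfected with the CMV-miR-29b vector and MEF cells transfected with the empty pcDNA3 vector, both without TGF-β. Its members were the samples whose labels gave the plasmid CMV-miR29b or Control together with no treatment, which are 3 libraries on each side and 6 of the 18 in the series. The other libraries came from cells with a Col1a1-miR-29b vector and from all 3 vectors with TGF-β added 6 h after transfection for 24 h. MEF cells are a cultured line from embryonic connective tissue, obtained from a repository, and every group came from this line. The CMV-miR-29b vector is a pcDNA3 plasmid in which the CMV promoter, active in most cell types, drives EGFP together with human miR-29b-1, with mRFP1 as a second fluorescent protein under its own promoter. The empty vector holds neither the microRNA nor the fluorescent proteins, so their effects cannot be told apart in this design. The study states that the experiment was repeated 3 times, but does not say which libraries of the groups belong to the same repeat.

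MicroRNAs are short RNAs that guide Argonaute proteins to mRNAs, mostly through pairing of a seed near their 5′ end with sites in the 3′ UTR, and the paired mRNAs are then degraded faster and translated less. The miR-29 family is best known in fibroblasts for its many sites in mRNAs of collagens and other extracellular matrix (ECM) proteins, and it also targets enzymes that add or remove DNA methylation. Its members have 1 seed in common, which is why one site search covers all of them. The mature sequences below, from RefSeq (GRCm38.p6), are shown because this seed defines the sites counted later. Capitals mark the seed, bases 2 to 8.
mmu-miR-29b-3p: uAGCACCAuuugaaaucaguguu
mmu-miR-29a-3p: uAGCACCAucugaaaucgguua
mmu-miR-29c-3p: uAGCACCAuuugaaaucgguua

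A site in a 3′ UTR was classed by its letters on the mRNA strand: 8mer (TGGTGCTA), 7mer-m8 (TGGTGCT without the last A) or 7mer-A1 (GGTGCTA without the first T). The following target sites with their upstream bases are shown because the mRNAs that carry them are described below. They are given 5′ to 3′ on the mRNA strand, in GRCm38 coordinates of the GENCODE annotation, with the site in capitals.
Col3a1, 8mer, chr1:45348968-45348989: tcaaaatgtctcaaTGGTGCTA
Col1a1, 8mer, chr11:94952524-94952545: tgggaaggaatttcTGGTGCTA
Col5a2, 8mer, chr1:45374965-45374986: ttttcttttaatgaTGGTGCTA
Col4a5, first of 3 8mers, chrX:141688239-141688260: actgctcccaccaaTGGTGCTA
Col4a2, first of 2 7mer-m8 sites, chr8:11448345-11448365: tgggaaggccacgtTGGTGCT
Tet3, first of 2 8mers, chr6:83364336-83364357: aatagtctaataaaTGGTGCTA

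Total counts in the 6 libraries ranged from 76123619 to 80332633, and the correlation of log2 CPM (counts per 1e6 counts) between replicates was 0.9922 to 0.9932. Between CMV-miR-29b and empty vector libraries it was 0.9921 to 0.993, so by this measure the groups were about as alike as the replicates. The mean chi-square per gene, which sets count differences against sampling error, was 44.6 to 60.7 between replicates. Between groups it was 42.8 to 75.8, and its highest values were those of CMV-miR-29b replicate d. Of 12 fibroblast markers, 11 had more than 3 counts in some library, and their summed level was 4188 to 4612 CPM in empty vector cells and 3656 to 4196 CPM in CMV-miR-29b cells. This sum includes Col1a1, Col1a2 and Col3a1, at 989, 605 and 203 CPM against 840, 519 and 151 CPM. Fn1, also in the sum, was at 1817 CPM against 1763 CPM. In bulk RNA, fewer cells of a type and less RNA per cell cannot be told apart. Lum, a small matrix proteoglycan, was at 0 in all 6 libraries. Marker lists of macrophages, endothelial, epithelial, muscle, neural and adipose cells each summed to at most 84.2 CPM in any of the 6 libraries. Their members Adgre1, Tyrobp, Emcn, Epcam, Myog, Rbfox3 and Lep were at 0, but most others were detected. More than 3 counts in some library were reached by 7 of 9 macrophage, 6 of 7 endothelial and 7 of 8 epithelial markers. The same held for 4 of 7 muscle, 6 of 7 neural and 4 of 5 adipose markers. Krt19, which makes up nearly all of the epithelial sum, was at 74.3 CPM against 78.6 CPM. The share of counts from the mitochondrial chromosome was 1.74% in CMV-miR-29b replicate d and 2.38% to 2.71% in the other 5 libraries.

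The first question was whether the vector delivered its microRNA. Mir29b-1 (chr6:31063023-31063093, minus strand), the gene of the miR-29b-1 precursor, had 0 counts in each of the 3 empty vector libraries. In CMV-miR-29b cells it had 110 counts in replicate c, 115 in replicate d and 309 in replicate e, a mean of 2.31 ± 1.49 CPM (SD, n = 3). The groups did not overlap, and Mir29b-1 rose at least 61.1-fold against a floor of 3 counts per library, or at least 38.4-fold without replicate e. In edgeR's quasi-likelihood test, Mir29b-1 passed with an adjusted p of 0.00263. A two-sided exact permutation test of the 3 against 3 libraries gave p = 0.1, the smallest this design allows. Poly(A) libraries hold primary transcripts and not mature microRNA, so these counts do not measure mature miR-29b. Whether reads of the plasmid's human sequence and of the mouse gene were kept apart was not tested.

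The other miR-29 genes were near 0. Mir29a, which lies next to Mir29b-1, had 0 counts in 5 libraries and 3 in CMV-miR-29b replicate e, and Mir29b-2 and Mir29c each had 1 count in CMV-miR-29b replicate c and 0 elsewhere. Gm27019 (chr6:31063092-31063495), a predicted gene of unknown role on the same strand, overlaps Mir29b-1 only at bases 31063092 and 31063093. It had 0, 0 and 4 counts in empty vector cells and 21, 28 and 59 in CMV-miR-29b cells. Gm27019 did not pass the test (adjusted p = 0.423 in edgeR), and only reads that reach this short overlap cannot be assigned to one of the genes. With TGF-β, Mir29b-1 was again at 0 in the 3 empty vector libraries and at 2.92, 3.10 and 4.03 CPM in the CMV-miR-29b libraries (edgeR, adjusted p = 0.0015).

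**Figure D1:**
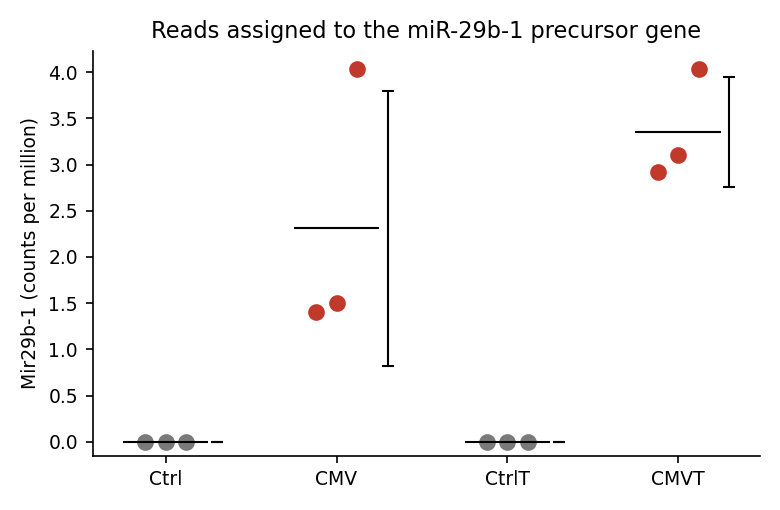
Mir29b-1 in CPM (vertical axis) in each library of 4 groups: empty vector (Ctrl) and CMV-miR-29b (CMV) without TGF-β, and both with TGF-β (CtrlT, CMVT). Horizontal lines are means and error bars are SD of 3 libraries. All 6 empty vector libraries are at 0, and the CMV-miR-29b libraries lie between 1.40 and 4.03.

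The second question was which other genes differed. Among 21161 genes tested, Mir29b-1 was the only gene past an adjusted p of 0.05, which is 0.00473% of them, and it was also the only one past this threshold with a change of at least 2-fold. At an unadjusted p under 0.05 there were 1156 genes (5.46%), with 598 higher (2.83%) and 558 lower (2.64%) in CMV-miR-29b cells. For 1146 genes (5.42%) all 3 CMV-miR-29b libraries were above all 3 empty vector libraries, and for 1090 (5.15%) all were below. Differences were small in size. Of the 13781 genes with a mean of at least 1 CPM, 81.8% had an absolute log2 fold change under 0.2, and the median standard error was 0.1. DESeq2, which the study used for its own gene lists, passed 43 genes, 20 higher and 23 lower, of which 25 had a mean of at least 1 CPM. The same threshold in edgeR on the 6 libraries alone passed 10 genes, without Mir29b-1.

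**Figure D2:**
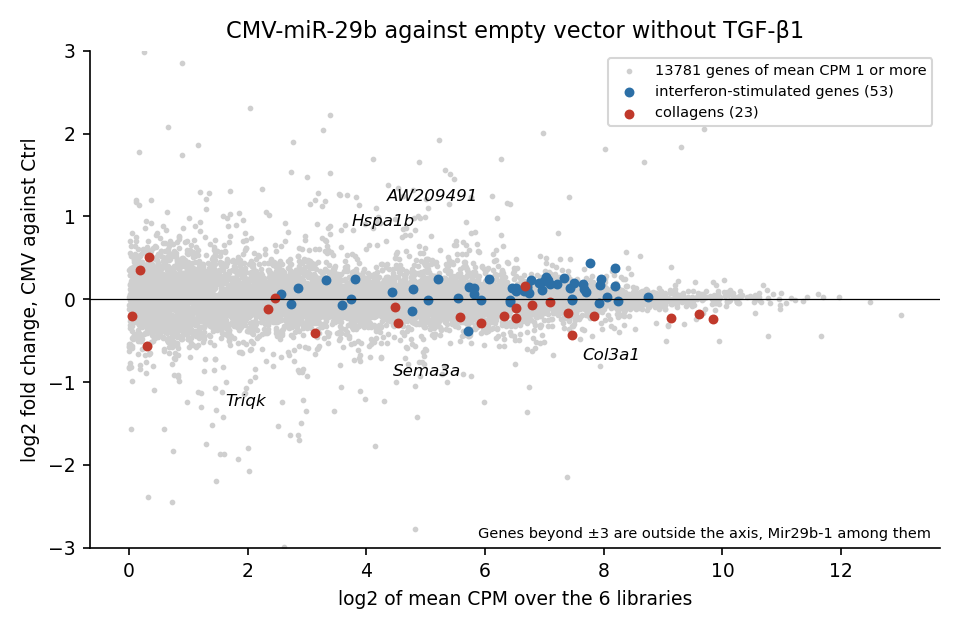
Log2 fold change of CMV-miR-29b against empty vector (vertical axis) by log2 of the mean CPM over the 6 libraries (horizontal axis) for 13781 genes whose mean reached 1 CPM. Each point is a gene. Of the 23 collagens (red), 19 lie below 0, and the 53 interferon-stimulated genes (blue) lie mostly above it. Mir29b-1 lies outside the vertical axis.

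The genes nearest to the threshold on the upper side had different roles. Hspa1b, the stress-inducible HSP70 chaperone, was at 7.97, 8.06 and 9.56 CPM in empty vector cells and at 17.2, 14.5 and 13.9 CPM in CMV-miR-29b cells, a log2 fold change of 0.83 ± 0.13 (SE). The groups did not overlap, but the adjusted p of 0.0648 missed the threshold in edgeR. Hspa1a, a near copy with which it may share reads, had 111, 22 and 28 counts against 170, 71 and 50. Hsph1, an HSP70 co-chaperone, was at 261 ± 20.1 CPM against 318 ± 16.7 CPM (SD, n = 3; adjusted p = 0.488 in edgeR). Dgcr8, the RNA-binding partner of Drosha in the first step of microRNA processing, was at 49.2, 53.4 and 52.7 CPM against 66.4, 62.6 and 60.8 CPM, a log2 fold change of 0.29 ± 0.06 (adjusted p = 0.304 in edgeR). Nfya, a subunit of the CCAAT-binding factor NF-Y, was at 57.0 ± 1.72 CPM against 97.9 ± 4.91 CPM, and Gga3, an adaptor of transport from the Golgi to endosomes, at 34.5 ± 0.556 against 56.3 ± 2.75 CPM. Both were above 0 in log2 fold change without TGF-β (0.78 and 0.71) and below 0 with it (−0.31 and −0.61). The difference between these contrasts did not pass the test, with adjusted p-values of 0.657 and 0.113 in edgeR. Both genes also varied within a group. Among untreated libraries of the Col1a1-miR-29b vector, Nfya was at 63.0, 99.5 and 98.3 CPM, and Gga3 at 57.5, 31.5 and 35.3 CPM. After TGF-β, Nfya was at 114, 109 and 114 CPM against 103, 106 and 63.6 CPM, with CMV-miR-29b replicate e the lowest. Gga3 was then at 51.9, 51.5 and 51.8 CPM against 33.1, 32.5 and 36.5 CPM. The cause of this variation was not tested. AW209491, Hint1, a nucleotide hydrolase, and Nme1, a nucleoside diphosphate kinase, were also on the upper side with log2 fold changes of 1.11, 0.17 and 0.18. In empty vector cells with TGF-β, AW209491 was at 12.5, 23.6 and 28.3 CPM.

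On the lower side, 7 of the 10 genes nearest to the threshold carried an 8mer or 7mer-m8 site, among them Col4a2, Col4a5 and Col6a2 and the dioxygenase gene Tet3. Of all genes with a 3′ UTR and a mean of at least 1 CPM, 3.29% held an 8mer and 12.6% a 7mer-m8 at best. Col4a2, a chain of basement membrane collagen, was at 64.9, 68.2 and 66.9 CPM against 55.5, 55.2 and 53.3 CPM, a log2 fold change of −0.29 ± 0.05 (adjusted p = 0.211 in edgeR). Sema3a, a secreted guidance protein with an 8mer, was at 25.3, 21.1 and 24.0 CPM against 13.1, 11.6 and 18.6 CPM, or −0.70 ± 0.14. Without CMV-miR-29b replicate e, the highest of the 3, it passed with a log2 fold change of −0.93 and an adjusted p of 0.0162 in edgeR. Ccna2, cyclin A2 of S phase and mitosis, was at 273 ± 9.18 CPM against 225 ± 5.67 CPM, and Sept2, a septin of the cytoskeleton, at 325 ± 8.60 CPM against 280 ± 2.86 CPM. The table lists a second gene under the symbol Sept2, and how reads were split between them is not known. Triqk, Ephb4, a receptor of ephrin-B2, and Rps12-ps4, a pseudogene that may share reads with Rps12, had log2 fold changes of −1.07, −0.34 and −1.53. Of the 19 genes that the naming rule took on both sides, 16 were among those that DESeq2 passed.

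The next question was whether mRNAs with miR-29 sites differed from those without. Of 11574 genes with an annotated 3′ UTR and a mean of at least 1 CPM, 381 (3.29%) held an 8mer in the longest 3′ UTR, 1454 (12.6%) a 7mer-m8 at best, 419 (3.62%) a 7mer-A1 at best, and 9320 (80.5%) none. The median log2 fold change was −0.049 for the 8mer class, −0.025 for 7mer-m8, −0.019 for 7mer-A1 and 0.001 without a site, against −0.005 for all 11574 genes. With sites taken from the shortest annotated 3′ UTR, the medians were −0.045, −0.024, −0.028 and −0.002, so the order of the 7mer classes depended on the UTR used. Of the 8mer genes, 67.2% were below 0, compared with 49.3% of those without a site. At an unadjusted p under 0.05, 34 of the 381 (8.92%) were lower and 2 (0.525%) were higher, where the genes without a site had 2.51% and 2.96%. None of the site-carrying genes passed the adjusted threshold. The 19 genes with 2 or more 8mers had a median of −0.085 and the 362 with a single 8mer −0.047.

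The 8mer class was below the class without a site in every CMV-miR-29b library, and also in empty vector replicate c. Relative to the mean of the empty vector, its median was −0.021, −0.042 and −0.053 in CMV-miR-29b replicates c, d and e, and −0.009, 0.015 and −0.002 in the empty vector replicates. The class without a site was at 0.007, 0.003 and −0.005 in the CMV-miR-29b replicates c, d and e. In the empty vector replicates it was at 0.011, −0.002 and −0.005. The median of the 8mer class minus that of genes without a site was −0.05, with a spread between replicates of 0.015 (SD). Without the collagens, the 370 remaining 8mer genes had a median of −0.046.

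Transcript length and GC content moved with the same contrast. With genes ranked by transcript length and cut into 5 groups, the median log2 fold change went from 0.026 in the shortest to −0.025 in the longest, and 8mer genes were long, with a median 3′ UTR of 2670 bases against 979 bases without a site. With offsets for length and GC content the difference between the 8mer class and genes without a site was −0.032. In 3 equal groups by 3′ UTR length, the 8mer medians were −0.024, −0.050 and −0.051 from short to long, those of 7mer-m8 −0.019, −0.017 and −0.029, those of 7mer-A1 −0.004, −0.021 and −0.020, and those without a site 0.018, −0.006 and −0.010. The part of length and GC content in the site medians was not tested further. Sites of 4 other microRNA families, searched the same way, gave 8mer medians of −0.010 (let-7), −0.020 (miR-21), −0.017 (miR-199) and −0.022 (miR-30). With the offsets, these 4 medians lay between −0.002 and 0.008, and that of the miR-29 8mers at −0.027. In libraries with TGF-β, which were not used above, the medians were −0.075, −0.045, −0.033 and −0.015 for 8mer, 7mer-m8, 7mer-A1 and no site. With the offsets they were −0.042, −0.012, 0.002 and −0.007, which put 7mer-A1 above the genes without a site.

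**Figure D3:**
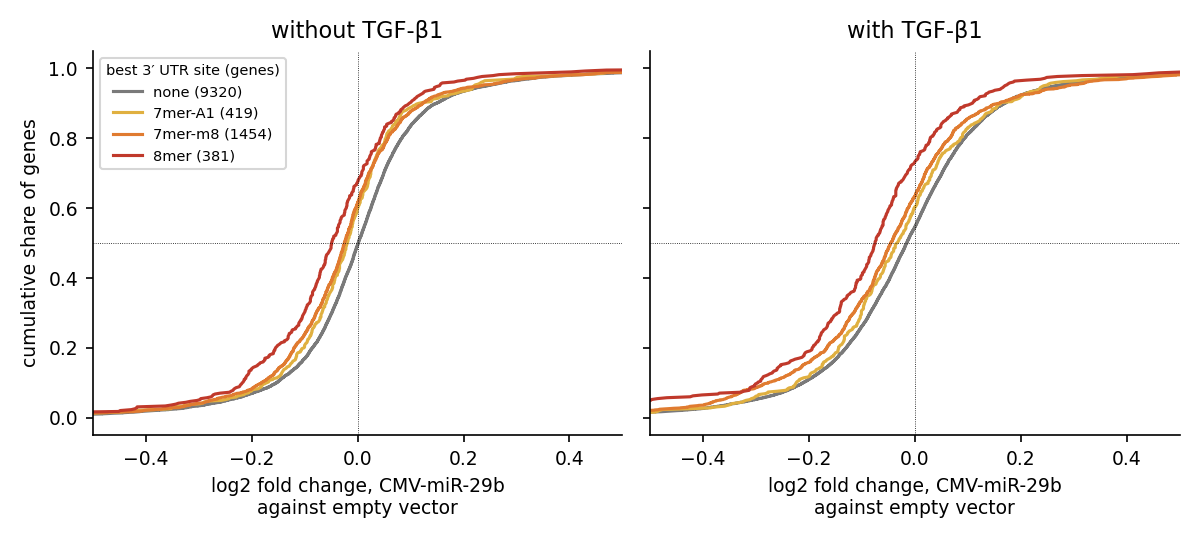
Cumulative share of genes (vertical axis) by log2 fold change of CMV-miR-29b against empty vector (horizontal axis), without and with TGF-β, for genes grouped by the best miR-29 site in the 3′ UTR. Curves shifted to the left mean lower values: the median is −0.049 for 381 genes with an 8mer and 0.001 for 9320 genes without a site in untreated cells.

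Fibrillar collagens, the main load-bearing fibres of connective tissue, had the lowest median among the target lists. Of 11 genes listed, 10 were tested and none passed the adjusted threshold. For 9 of the 10 the log2 fold change was below 0, with a median of −0.22 beside 0.003 for all genes tested, and 7 had an unadjusted p under 0.05, all lower, where 2.64% of all genes were. The 5 genes Col1a1, Col3a1, Col5a1, Col5a2 and Col5a3 were lower with no overlap between groups, beside 5.15% of all genes.

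Col3a1, the chain of type III collagen, was at 229, 186 and 196 CPM in empty vector cells and at 169, 147 and 138 CPM in CMV-miR-29b cells, a log2 fold change of −0.43 ± 0.11 (adjusted p = 0.629, edgeR). All 3 CMV-miR-29b libraries were below the lowest empty vector library. Col1a1, a chain of type I collagen and by FPKM the most abundant collagen of these cells (135 ± 9.03 FPKM in empty vector cells), was at 1072, 942 and 955 CPM against 849, 924 and 749 CPM, or −0.24 ± 0.08. Its groups were apart by a small margin only, between replicate d of both. Col1a2, its partner chain, was at 657, 567 and 592 CPM against 579, 507 and 471 CPM, or −0.22 ± 0.10, and the groups overlapped. Col5a2, a chain of type V collagen that sets fibril diameter, was at 843, 816 and 823 CPM against 736, 783 and 680 CPM, or −0.17 ± 0.05. Col5a1 and Col5a3, the other type V chains, had log2 fold changes of −0.20 ± 0.06 and −0.21 ± 0.06. Col11a1, of type XI collagen, was at 11.1, 11.6 and 7.48 CPM against 7.48, 7.75 and 7.56 CPM, so empty vector replicate e was level with the CMV-miR-29b libraries. Col2a1 (−0.56), Col11a2 (−0.12) and Col27a1 (0.54) were at low levels with standard errors of at least 0.25.

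The fibrillar collagens had lower medians in the 3 CMV-miR-29b libraries than in any empty vector library (−0.19, −0.18 and −0.32 against 0.06, −0.07 and −0.03). In the separate libraries with TGF-β, 8 of the 10 were below 0 and the median was −0.305, with −0.65 for Col3a1, −0.37 for Col1a1 and −0.48 for Col1a2 on the log2 scale. Again 7 had an unadjusted p under 0.05 and were lower, beside 6.32% of all genes in that contrast. None of the 10 passed after adjustment in edgeR, where Col3a1 and Col5a2 had an adjusted p of 0.0559. DESeq2 passed 264 genes in that contrast against 2 in edgeR. The study, which used DESeq2, reported several collagen genes as inhibited in CMV-miR-29b cells. The Col1a1-miR-29b vector without TGF-β was compared with the empty vector libraries without TGF-β. There Col3a1 had a log2 fold change of −0.59 and Col1a1 of −0.24.

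**Figure D4:**
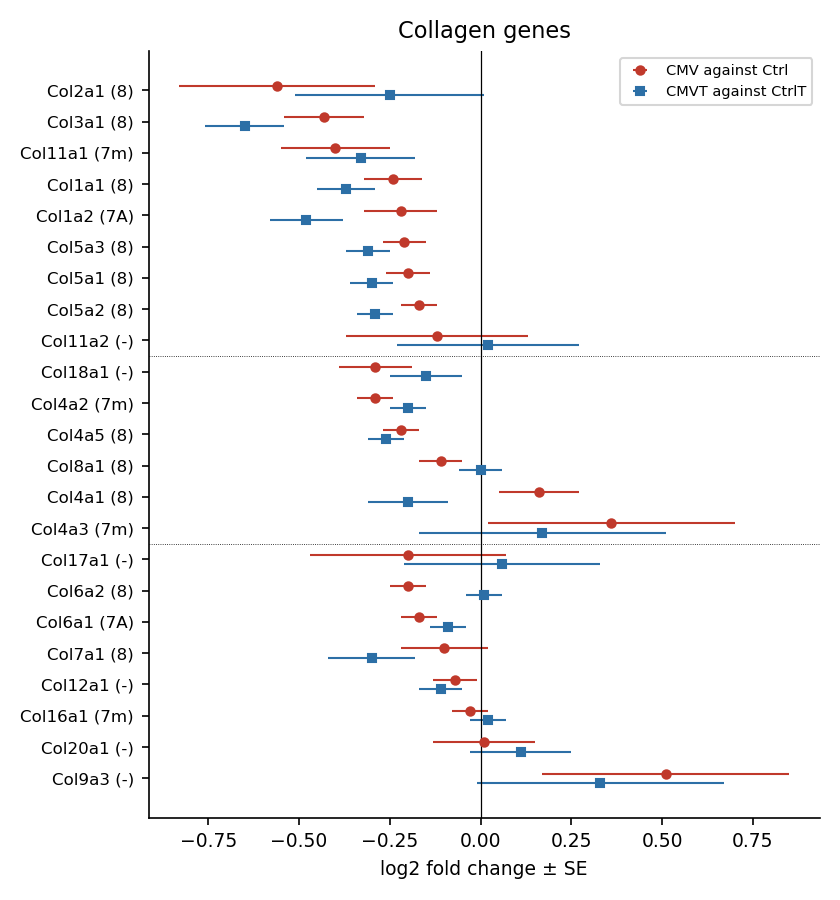
Log2 fold change ± SE (horizontal axis) of the 23 collagen genes whose mean reached 1 CPM, for CMV-miR-29b against empty vector without TGF-β (circles) and with it (squares). Dotted lines separate fibrillar, basement membrane and network, and other collagens, and the best miR-29 site is in brackets (8, 8mer; 7m, 7mer-m8; 7A, 7mer-A1; -, none). In untreated cells 19 of the 23 genes are below 0.

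In the basement membrane and network collagens, 11 genes were tested, with a median of −0.11 and 3 genes lower at an unadjusted p under 0.05, beside 2.64% of all genes. These were Col4a2, described above, Col4a5, which holds 3 8mers and was at 97.8, 98.9 and 99.1 CPM against 91.1, 82.7 and 79.9 CPM, and Col18a1, the source of endostatin, at 25.5 CPM against 20.9 CPM. Col4a1, which is paired with Col4a2 in type IV collagen and holds an 8mer, was at 96.9, 95.5 and 97.4 CPM against 112, 110 and 100 CPM, a log2 fold change of 0.16 ± 0.11 (adjusted p = 0.961, edgeR). Its groups did not overlap either, in the opposite direction to Col4a2. With TGF-β both chains had a log2 fold change of −0.20. Col8a1, a network collagen with an 8mer, was at −0.11 ± 0.06.

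Of 12 other collagens tested, 2 were lower at an unadjusted p under 0.05, beside 2.64% of all genes, and both belong to the beaded-filament type VI. Col6a1 was at 187, 168 and 182 CPM against 154, 166 and 158 CPM, and Col6a2 at 88.2, 82.9 and 84.0 CPM against 76.7, 75.1 and 70.2 CPM. With TGF-β their log2 fold changes were −0.09 and 0.01. Col16a1 and Col12a1, which sit on fibril surfaces, were at −0.03 ± 0.05 and −0.07 ± 0.06. Over all 33 collagen genes tested, 12 were lower and 0 higher at an unadjusted p under 0.05, beside 2.64% and 2.83% of all genes. None passed after adjustment in edgeR, while DESeq2 passed 2, Col4a2 and Col6a2, with adjusted p-values of 0.000502 and 0.016. Among the 23 with a mean of at least 1 CPM, the 15 with an 8mer or 7mer-m8 had a median log2 fold change of −0.20 and the 6 without a site −0.10.

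Of matrix genes other than collagens that are listed as miR-29 targets, 14 were tested. Of these, 11 were below 0 with a median of −0.09, and 5 were lower at an unadjusted p under 0.05, beside 2.64% of all genes. The median was −0.026 without CMV-miR-29b replicate e. Sparc, a collagen-binding glycoprotein, was at 896, 850 and 851 CPM against 757, 813 and 754 CPM, or −0.16 ± 0.04. Fbn1, the microfibril protein fibrillin-1 with an 8mer, was at 167, 156 and 161 CPM against 155, 144 and 133 CPM, or −0.17 ± 0.06 without and −0.37 ± 0.06 with TGF-β. Nid1, a basement membrane linker, Fstl1, a secreted glycoprotein, and Loxl2, a collagen crosslinking enzyme, were at −0.15, −0.13 and −0.12. Itgb1, the integrin β1 chain, was at −0.05 ± 0.03, and Lox, the crosslinking enzyme with a 7mer-m8, at 0.13 ± 0.09.

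Among genes of DNA methylation and its removal, 9 were tested with a median of −0.18, and 4 were lower at an unadjusted p under 0.05, beside 2.64% of all genes. Tet3, which oxidizes 5-methylcytosine and holds 2 8mers, was at 127, 134 and 126 CPM against 115, 111 and 110 CPM, a log2 fold change of −0.20 ± 0.04 (adjusted p = 0.409, edgeR). All CMV-miR-29b libraries were lower, and with TGF-β the value was −0.26 ± 0.04. Dnmt3a, a de novo methyltransferase with 2 8mers, was at 79.3, 80.8 and 75.2 CPM against 72.1, 67.3 and 63.5 CPM, or −0.21 ± 0.06. Tet1 and Tdg, the glycosylase that excises oxidized bases, both with an 8mer, were at −0.23 ± 0.10 and −0.22 ± 0.09 with overlapping groups. Dnmt1, the maintenance methyltransferase, and its partner Uhrf1 hold no site and were at 0.03 ± 0.04 and 0.06 ± 0.04.

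Of 10 growth factor and kinase genes listed as miR-29 targets, 9 were below 0 with a median of −0.17, and 2 were lower at an unadjusted p under 0.05, beside the same 2.64%. Map4k4, a kinase of stress signalling, was at 344, 334 and 345 CPM against 281, 293 and 322 CPM, and Kdm5b, a histone H3K4 demethylase, at 71.0, 72.6 and 73.4 CPM against 62.4, 68.1 and 60.1 CPM. The median of this list was −0.065 without empty vector replicate c. Vegfa, the angiogenic factor with an 8mer, was at −0.04 ± 0.06. Among 12 survival and cell cycle targets the median was −0.06, and only Bak1, a pro-apoptotic pore protein with an 8mer, was lower at an unadjusted p under 0.05 (168, 165 and 170 CPM against 152, 147 and 130 CPM). Mcl1, a survival protein with an 8mer, was at −0.04 ± 0.05, Cdc42 at −0.09 ± 0.05 and Ccnd2 at 0.00 ± 0.04. The navigators Nav1 and Nav3, each with an 8mer, were at −0.13 ± 0.16 and −0.05 ± 0.16.

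Interferon-stimulated genes, the antiviral programme that foreign nucleic acid can switch on, lay on the other side. Of 56 tested, none passed the adjusted threshold, 43 were above 0, the median was 0.13, and 12 were higher and 0 lower at an unadjusted p under 0.05, where 2.83% of all genes were higher. Isg15, a ubiquitin-like modifier, was at 241, 211 and 226 CPM against 286, 252 and 267 CPM, a log2 fold change of 0.25 ± 0.07. Usp18, which removes it, was at 147, 143 and 149 CPM against 189, 163 and 172 CPM, or 0.26 ± 0.07. Both had separate groups, with CMV-miR-29b replicate c the highest. Oasl2, an oligoadenylate synthetase-like protein, was at 177, 179 and 200 CPM against 216, 180 and 362 CPM, or 0.44 ± 0.17. Only CMV-miR-29b replicate e was far above the empty vector libraries, and replicate d lay within their range. Cxcl10, a chemokine, and Samd9l, the list members with the highest counts, were at 0.02 ± 0.05 and −0.02 ± 0.10.

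The values of this list differed between libraries. Its median relative to the empty vector was 0.25 in CMV-miR-29b replicate c, −0.02 in replicate d and 0.13 in replicate e, and without replicate c the median log2 fold change was 0.056. With TGF-β it was −0.007, with 4 higher and 1 lower at an unadjusted p under 0.05, beside 5.64% and 6.32% of all genes. In Col1a1-miR-29b cells against the same empty vector libraries it was 0.40. Of 17 genes of nucleic acid sensing, 10 were above and 7 below 0, and a single gene had an unadjusted p under 0.05, which is near the share over all genes. Ddx58 and Eif2ak2, which sense viral RNA, were at 0.08 ± 0.05 and 0.10 ± 0.06. Of 17 genes of MHC class I presentation 3 were higher at an unadjusted p under 0.05, beside 2.83% of all genes, among them H2-D1 at 0.11 ± 0.05, and B2m was at 0.04 ± 0.05.

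**Figure D5:**
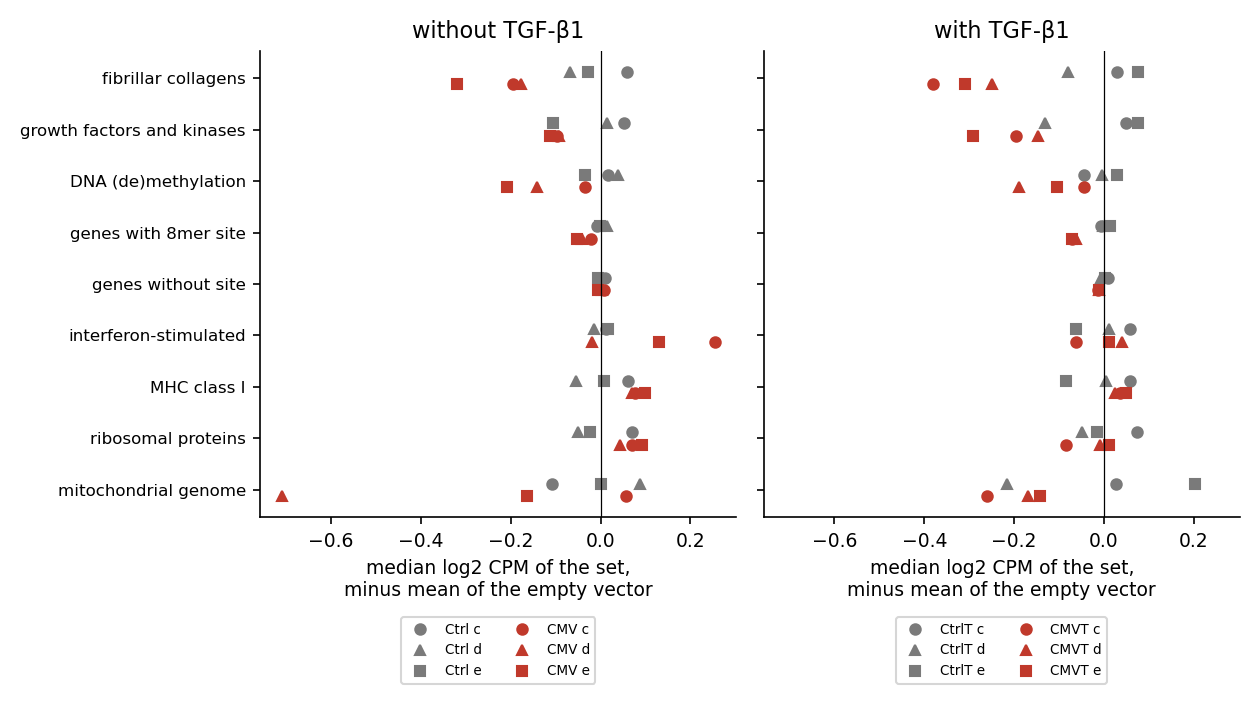
Median log2 CPM of each gene set in each library, minus the mean of the empty vector libraries with the same treatment (horizontal axis), without and with TGF-β. Gray symbols are empty vector and red symbols CMV-miR-29b, with 1 symbol per library (circle c, triangle d, square e). Fibrillar collagens are apart in both panels, and interferon-stimulated genes range from −0.02 to 0.25 in the untreated CMV-miR-29b libraries.

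Ribosomal protein genes had a median of 0.07, with 10 of 81 higher at an unadjusted p under 0.05, beside 2.83% of all genes, such as Rpl26 (0.39 ± 0.12) and Rplp2 (0.24 ± 0.07), while Rps2 and Rpl4, with the highest counts, were at 0.18 ± 0.09 and 0.01 ± 0.05. Relative to the empty vector mean, their median was 0.069 in empty vector replicate c and 0.071 in CMV-miR-29b replicate c. The 13 respiratory genes encoded in the mitochondrial genome had a median of −0.24 with none at an unadjusted p under 0.05. CMV-miR-29b replicate d had a median of −0.71 relative to the empty vector, against 0.06 and −0.16 in replicates c and e, and without replicate d the median log2 fold change was −0.062. mt-Co1, a subunit of cytochrome c oxidase, was at 8782 CPM against 7716 CPM, with overlapping groups. mt-Co2, another subunit, was at 3552, 3750 and 3878 CPM against 3433, 1871 and 2942 CPM, or −0.44 ± 0.24, with groups that did not overlap and replicate d the lowest.

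Genes of the TGF-β pathway and of myofibroblasts, the contractile cells of fibrosis, were also compared in cells without TGF-β. Of 27 TGF-β pathway genes, 1 had an unadjusted p under 0.05, beside 5.46% of all genes, so the count is near that share. The gene was the feedback inhibitor Pmepa1 (10.8, 10.1 and 11.2 CPM against 13.1, 12.2 and 11.9 CPM), and the median of the list was −0.008. Bmpr1a, a BMP receptor, was at −0.08 ± 0.06. Of 11 contractile genes, 1 was lower at an unadjusted p under 0.05, beside 2.64% of all genes. It was Acta2, smooth muscle actin (3.04, 3.59 and 3.59 CPM against 2.48, 2.86 and 2.05 CPM, log2 fold change −0.47 ± 0.14, adjusted p = 0.765 in edgeR). With TGF-β the value was −0.02. Cald1 and Tpm2, which bind actin filaments, were at −0.02 ± 0.21 and 0.06 ± 0.04. Among the fibroblast markers that are not collagens, Dcn, the proteoglycan decorin, was at 5.50, 5.19 and 6.41 CPM against 4.83, 3.35 and 3.13 CPM, and Fn1, fibronectin, at −0.04 ± 0.07.

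The remaining lists, apart from those of cell type markers, had medians within 0.10 of 0. Their counts stand beside 2.83% of all genes higher and 2.64% lower at an unadjusted p under 0.05, a share that several of them are near. Of 27 cell cycle genes, 4 were higher at an unadjusted p under 0.05, including Pcna (0.12 ± 0.05) and Mcm4 (0.08 ± 0.03), and 1, Ccna2, was lower, while Mki67 and Top2a were at −0.08 ± 0.05 and −0.06 ± 0.04. Of 21 p53 targets, 3 were lower at that level, and Cdkn1a and Plk2 were at −0.06 ± 0.05 and 0.00 ± 0.07. Of 18 genes of the unfolded protein and integrated stress response 1 was lower, Xbp1 (−0.22 ± 0.07), and Hspa5 and Calr were at −0.04 and 0.01. In the list of microRNA processing, Dgcr8 was the only one of 12 with an unadjusted p under 0.05, and Drosha and Ago2 were at −0.04 ± 0.03 and −0.03 ± 0.06. Of 22 genes of cholesterol and fatty acid synthesis 1 was lower (Dhcr7, a cholesterol synthesis enzyme, at 98.8 ± 2.92 CPM against 73.5 ± 28.1 CPM), and Scd2 and Fasn were at −0.02 and 0.03. Of 21 chemokine and inflammatory genes 1 was lower (Lif, −0.21 ± 0.09), with Ptgs2 at −0.06 and Cx3cl1 at 0.00 ± 0.66. Of 17 lysosome genes 0 had an unadjusted p under 0.05, with Lamp1 at 0.05 and Sqstm1 at 0.02.

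The last comparison set these values beside the same vectors with TGF-β. There, 2 genes passed the adjusted threshold, 0.00945% of those tested. These were Mir29b-1 and Plpp6, a lipid phosphatase without a miR-29 site, which was at 15.7, 17.1 and 18.1 CPM in empty vector cells and 30.2, 30.6 and 32.3 CPM in CMV-miR-29b cells. With TGF-β, Plpp6 was higher in CMV-miR-29b than in empty vector cells by 0.87 on the log2 scale. Without TGF-β this difference was 0.04 ± 0.09. At an unadjusted p under 0.05, 5.64% of genes were higher and 6.32% lower with TGF-β. No gene passed for the difference between the contrast with and without TGF-β in edgeR, where 1129 had an unadjusted p under 0.05, and DESeq2 passed 19. Of 408 genes with a mean of at least 1 CPM that were lower without TGF-β at an unadjusted p under 0.05, 303 (74.3%) were also below 0 with TGF-β, compared with 53.6% of all 13781 genes. Of the 412 that were higher, 32.8% were below 0 with TGF-β. The contrasts shared no library, but each gene had a single spread estimate from the fit of all 18 libraries. Counts by p-value in the contrasts are therefore not independent of each other. For the 34 lower genes with an 8mer, 31 were below 0 with TGF-β. An unadjusted p under 0.05 on the lower side was found for 17 of them, including Col3a1, Col5a2, Col4a5, Fbn1, Tet3 and Dnmt3a. Among all 408 lower genes, 97 reached this level on the same side.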

How the data were processed

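Poly(A) RNA of 18 MEF cultures was read as paired ends. The authors deposited, for each gene, whole-number counts without normalization and FPKM values. Their processing notes name cutadapt, FastQC, HISAT2, StringTie and mm9, but the gene coordinates are those of GRCm38. All 55450 genes were found in GENCODE M21, 52543 with identical coordinates. Among counts of 1 to 40, 34.6% to 36.7% were multiples of 4 in the 6 libraries, and how counts were made is not given in the sources used here. The deposited FPKM served for levels between genes and for alternatives, and 2 FPKM columns that no sample title matched were not used. Each Col1a1-miR-29b group, untreated or treated, also had a count column whose letter matched no sample title. These count columns were assigned to their group by name alone and were kept in the fit of all 18 libraries. They therefore entered the spread estimates behind every SE and p-value of that fit.

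Counts of all 18 libraries were fitted with edgeR 4.0.16 in R 4.3.3 (filterByExpr, TMM, a mean for each of 6 groups, quasi-likelihood F test, Benjamini-Hochberg adjustment, threshold 0.05). CPM were scaled by TMM. SE came from the F statistic. DESeq2 1.42.0 and limma 3.58.1 were run beside it. P-values measure the spread between cultures, which may be technical. Alternatives were DESeq2, other size factors and filters, the 6 libraries alone, a replicate block, limma on FPKM, counts divided by 4, length and GC offsets, and leaving out each library. The methods were tested on simulated data.

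Named genes were the miR-29 genes and any gene overlapping Mir29b-1. To these were added the 10 largest rises and falls with a mean CPM of at least 1, an adjusted p under 0.05 and groups without overlap, filled up by unadjusted p where fewer passed. For each gene list up to 4 members past the threshold were named or, where none passed, the 2 with the highest CPM. The 6 largest falls with an 8mer past the threshold were to be named, but none passed, and Col1a1, Col1a2, Col3a1 and Acta2 were always named. List members with an unadjusted p under 0.05, genes of known role in a list and Hspa1a were named after their values were seen. Values of 2 genes that the rule named are not reported here. The comparison and the lists were chosen with earlier results of these data known.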

Additional observations from a re-analysis of the deposited data

How the results depend on the processing

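Counts of genes past the threshold depended on the test. In cells without TGF-β, 1 gene passed in edgeR and 43 in DESeq2 (27 with at least a 2-fold change). Of these 43, 8 had fitted log2 fold changes beyond 20 in size. The 6 libraries alone gave 10 genes (4 at least 2-fold), and 0 passed with at least 10 counts in every library, a filter that removes Mir29b-1, or with counts divided by 4. Leaving out 1 library at a time gave 1 to 5 genes, and 1 to 4 at least 2-fold. The count was 5 without empty vector replicate d (Mir29b-1, Gm45311, Snord57, Mtfr1 and Gemin7), 3 without CMV-miR-29b replicate d (Mir29b-1, Zfp346 and AI662270), and 2 without empty vector replicate e, CMV-miR-29b replicate c or replicate e. Mir29b-1 was past the threshold in each of these fits without a library (log2 fold change 9.76 to 10.68), but had an adjusted p of 0.199 with the 6 libraries alone (log2 fold change 10.5) and of 0.162 with counts divided by 4 (8.44). With TGF-β, the 2 genes became 264 in DESeq2, 4 without a filter on low counts, 1 with at least 10 counts in every library or with counts divided by 4, and 10 with offsets for length and GC content, and 2 to 4 without 1 library. For the difference between the contrasts, DESeq2 passed 19 genes and the fits without 1 library 0 to 1. The difference of the 8mer class from genes without a site, −0.05, was −0.032 with offsets for length and GC content and −0.033 with these offsets and the replicate block, an alternative added after seeing the data. Leaving out 1 library gave −0.059 to −0.042, and the other settings −0.05 to −0.039. The medians of the fibrillar collagens stayed between −0.26 and −0.18 under all alternatives, and those of the interferon-stimulated genes between 0.056 and 0.18. Those of the basement membrane collagens ranged from −0.167 to −0.021, of the other matrix genes from −0.132 to −0.026, of the ribosomal protein genes from 0.023 to 0.109, of the DNA methylation genes from −0.227 to −0.094, of the growth factors and kinases from −0.18 to −0.065, and of the other collagens from −0.141 to 0.009, the 1 list median of 228 values over 12 lists to change its sign. Of 1499 values of the other 79 named genes under the alternatives, 20 were past the threshold that the reported value missed. Another 6, not past the threshold, changed sign with a shift of at least the standard error of the reported value. Of the values past the threshold, 0 changed sign. Sign changes with a smaller shift were not counted. The cause of these differences between settings was not tested beyond what their construction shows.

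Titles carry letters, and whether equal letters pair libraries was checked on 10360 genes. Deviations from group means correlated at 0.0128 on average for 36 equal-letter pairs and at −0.00656 for 70 unequal ones, so libraries were not treated as paired. With the letter as a replicate block, 1 gene passed in edgeR, Mir29b-1, with an adjusted p of 0.0357 and a log2 fold change of 10.35, and the block changed no other call. This fit left out the libraries whose count columns matched no sample title. Without the block, the same libraries gave Mir29b-1 an adjusted p of 0.0206 and a log2 fold change of 10.44 in edgeR. Sites of other microRNA families and groups by 3′ UTR length were also added after seeing the data. Depth limits the 7380 genes tested with a mean under 1 CPM, whose median standard error was 0.76 on the log2 scale.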
